A study of Rattus norvegicus with 22 samples.

Results

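The 8 genes described here encode receptors that restrain myeloid cells, the lineage of microglia, monocytes, macrophages and granulocytes, and membrane ligands of those receptors. Cd300lf, Havcr2, Cd200r1, Lair1, Sirpa and Pilra are the receptors, and Cd200 and Cd47 are the ligands. The genes were chosen by name, with earlier results of the same counts known, so their levels, fold changes and adjusted p-values are a description and no independent evidence that the set changed. Of the 8 genes, 7 had a row in the deposited table of 17172 genes, and all 7 passed the filter on low counts that left 12875 genes. Pilra was not analysed here.

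Receptors of this kind dampen the response of a myeloid cell. Most of them carry tyrosine motifs in their cytoplasmic tail that, once phosphorylated, recruit the phosphatases encoded by Ptpn6, Ptpn11 or Inpp5d, which counteract signals from activating receptors that use the adaptors Tyrobp and Fcer1g. Cd200r1 works through the adaptors Dok1 and Dok2, and the tail of Havcr2 binds Bag6. In the brain, neurons display Cd200 and Cd47, which bind Cd200r1 and Sirpa on microglia and macrophages, and the Cd47 and Sirpa pair is known for restraining phagocytosis.

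Messenger RNA was sequenced from the hippocampus on the injured side of 14 adult male Sprague-Dawley rats. TBI rats received a moderate lateral fluid percussion injury (LFP), a pulse of fluid delivered to the dura through a craniectomy over the right hemisphere. Sham rats had the craniectomy, the injury hub and the same duration of anesthesia, without the pulse, so both arms share the surgery. The groups were sham day 1 (2 rats), TBI day 1 (4 rats), sham day 14 (4 rats) and TBI day 14 (4 rats), the day being the time after surgery.

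Total counts ran from 15065540 to 23743703 per library. Markers of neurons summed to between 5480 and 16968 CPM (the counts of a gene scaled to the size of its library) in all 14 libraries. RNA of the choroid plexus, the epithelium that lies beside the hippocampus, stood apart in 3 libraries, with a score (the mean log2 CPM of 17 choroid genes, centred over all libraries) of 5.04 in sham day 1 replicate 1 and of 2.39 and 4.28 in TBI day 14 replicates 2 and 3, against -1.76 to -0.73 in the other 11. Levels are given as CPM after scaling by the trimmed mean of M-values (TMM), and fold changes on the log2 scale (log2FC) with their standard error (SE) come from the quasi-likelihood test of edgeR. A gene was called where its Benjamini-Hochberg adjusted p, taken across all 12875 genes, was under 0.05. In bulk tissue, fewer cells of a type and less RNA per cell cannot be told apart.

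Havcr2 and Cd300lf were higher at day 14 after TBI. Cd200r1 was called higher at day 1, a call lost without either sham day 1 rat. The other 4 genes, Lair1, Sirpa, Cd200 and Cd47, were called at neither day against sham. At day 1, 1 of the 7 genes was called higher, where 11.2% of all genes were, and 0 were called lower, where 7.93% of all genes were. At day 14, 2 of the 7 were called higher, against 4.07% of all genes, and 0 lower, against 0.365% of all genes. Of the 7 genes, 0 were lower at an unadjusted p under 0.05 at either day with edgeR, limma-voom or DESeq2. Since the genes were chosen with these contrasts known, nothing is read from the difference between their counts and the shares over all genes.

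**Figure D1:**
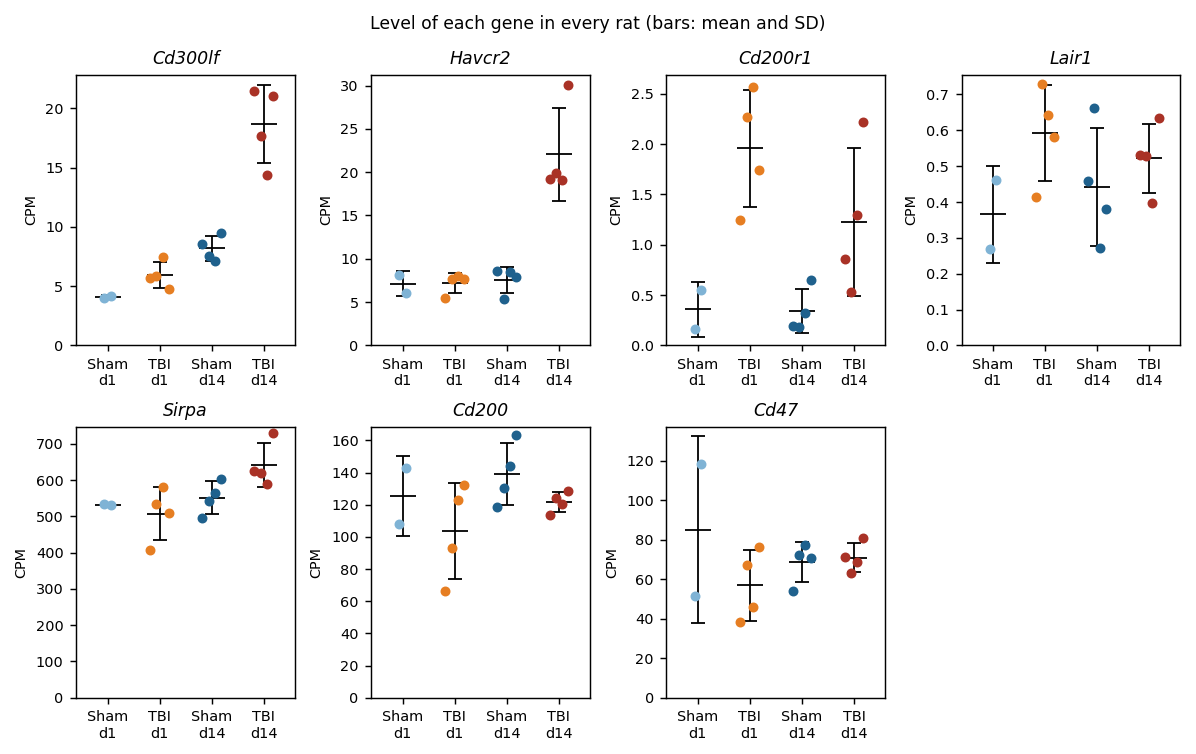
Level of each of the 7 genes (CPM, linear axis from 0) in every rat of the 4 groups. Points are rats, and the horizontal line and bars give the mean and SD of a group. Havcr2 and Cd300lf stand clear of all other groups at TBI day 14, whereas Cd200r1 is highest on average at TBI day 1.

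Havcr2, the receptor for galectin and phosphatidylserine that also marks exhausted T cells, was at 8.14 and 6.09 CPM in the sham day 1 rats and at 5.50, 7.67, 8.02 and 7.61 CPM in the TBI day 1 rats. It was at 8.59, 5.41, 8.44 and 7.84 CPM in the sham day 14 rats and at 19.2, 19.9, 19.1 and 30.0 CPM in the TBI day 14 rats. The sham day 1, TBI day 1 and sham day 14 rats overlapped, and every TBI day 14 rat lay above every other rat. At day 14 Havcr2 was 2.91-fold higher in TBI (log2FC 1.54, SE 0.21, adjusted p = 0.000266 in edgeR). At day 1 the log2FC was 0.02, with a 95% confidence interval from -0.51 to 0.56 (adjusted p = 0.962). The effect of TBI at day 1 minus that at day 14 was -1.52 on the log2 scale (SE 0.32, adjusted p = 0.0176). Havcr2 was the 1 of the 7 genes called lower in this difference, where 1.44% of all genes were, and 0 were called higher, where 2.24% were, with 0 higher at an unadjusted p under 0.05 in edgeR, limma-voom or DESeq2. The Havcr2 difference rests on the 2 sham day 1 rats. It was -1.30 (adjusted p = 0.0574) without sham day 1 replicate 1, and -1.50 (adjusted p = 0.0785) without the 3 libraries rich in choroid plexus RNA. The day 14 call held in all 14 fits that left out 1 library, with log2FC values from 1.36 to 1.62, and without the 3 libraries rich in choroid plexus RNA (1.73, adjusted p = 0.00083).

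Cd300lf, a lipid-binding receptor of myeloid cells with inhibitory tyrosine motifs, was at 3.99 and 4.2 CPM in the sham day 1 rats and at 5.71, 5.84, 7.47 and 4.75 CPM in the TBI day 1 rats. It was at 8.59, 7.51, 7.14 and 9.47 CPM in the sham day 14 rats and at 21.5, 17.7, 14.4 and 21.0 CPM in the TBI day 14 rats. The groups therefore stood in the order sham day 1, TBI day 1, sham day 14 and TBI day 14, and only TBI day 1 and sham day 14 overlapped among neighbours in that order. At day 14 Cd300lf was 2.28-fold higher in TBI (log2FC 1.19, SE 0.18, adjusted p = 0.000685 in edgeR), and this call held in all 14 fits that left out 1 library and without the 3 libraries rich in choroid plexus RNA (1.40, adjusted p = 0.00113).

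The day 1 value of Cd300lf depended on the sham group it was set against. Against sham day 1 its log2FC was 0.54 (SE 0.23, adjusted p = 0.109), not called although the 4 TBI rats lay above both sham rats. Against sham day 14, the baseline the study used for its trajectories, it was -0.46 (adjusted p = 0.0471). The study listed Cd300lf among genes that fell acutely and were still lower, in part recovered, at day 14. The study states a correction for batch and for sham over time in its trajectories, which was not made here. In the counts used here Cd300lf was higher in TBI at day 14 (log2FC 1.19 against sham day 14). The sham groups themselves differed, with a log2FC of -0.997 at sham day 1 against sham day 14 (SE 0.23, adjusted p = 0.0104), and the 2 sham day 1 rats lay below all 4 sham day 14 rats. That call was lost without sham day 1 replicate 2 (-1.03, adjusted p = 0.0582) and without the 3 libraries rich in choroid plexus RNA (-0.95, adjusted p = 0.055). Of the 7 genes, Cd300lf was the 1 called lower in sham day 1 against sham day 14, where 7.88% of all genes were lower and 11.3% higher, and 0 of the 7 were higher. The TBI effects on Cd300lf at the 2 days differed by -0.65 (adjusted p = 0.219).

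Between the TBI groups, Cd300lf was lower at day 1 than at day 14 by a log2FC of -1.65 (adjusted p = 1.36e-05) and Havcr2 by -1.61 (adjusted p = 4.28e-05), both in edgeR. Of the 7 genes, 3 were called lower in TBI day 1 against TBI day 14, where 17.6% of all genes were lower, and 0 were called higher, where 21.9% were. The 0 stayed 0 at an unadjusted p under 0.05 with edgeR, limma-voom and DESeq2. The third gene was Sirpa.

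The promoters of Cd300lf and Havcr2 are shown because these genes were both higher in every TBI day 14 rat than in any other rat. RefSeq sequence of the current rat build GRCr8 was at hand for the promoters of 6 of the 8 genes, from 250 bases before to 50 bases after the start of each gene. The motif GAGGAAGT, a sequence of the type bound by the myeloid transcription factor encoded by Spi1, was chosen after the promoters had been seen and was searched on both strands, together with the shorter AGGAAGT that it contains. Capitals mark the motif, and positions count back from the gene start. In Cd300lf, on the minus strand at chr10:100875023-100875272, the motif starts at -59. In Havcr2, on the plus strand at chr10:31383675-31383924, it starts at -8.
Cd300lf: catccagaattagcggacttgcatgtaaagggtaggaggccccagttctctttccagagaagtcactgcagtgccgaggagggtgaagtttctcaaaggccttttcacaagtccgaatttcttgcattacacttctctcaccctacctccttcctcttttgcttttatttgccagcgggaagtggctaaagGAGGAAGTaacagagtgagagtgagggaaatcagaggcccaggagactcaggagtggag
Havcr2: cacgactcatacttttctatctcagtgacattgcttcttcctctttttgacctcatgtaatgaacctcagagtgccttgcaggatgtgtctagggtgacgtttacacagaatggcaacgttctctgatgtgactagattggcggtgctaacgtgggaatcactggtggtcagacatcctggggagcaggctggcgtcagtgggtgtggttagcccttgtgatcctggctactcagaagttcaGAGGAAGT

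Of the other promoters at hand, that of Pilra held the shorter AGGAAGT at -91, and those of Cd200, Cd47 and Lair1 held neither form. Across all 33469 rat promoters in the same table, 2.42% held GAGGAAGT and 8.41% held AGGAAGT. A match is a description of the letters and was not tested as a binding site.

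Cd200r1, the receptor for Cd200, had low counts, so its counts are given with its levels. The 2 sham day 1 rats had 3 and 12 counts (0.162 and 0.553 CPM), and the 4 TBI day 1 rats had 24, 56, 56 and 39 counts (1.25, 2.27, 2.57 and 1.75 CPM). The 4 sham day 14 rats had 3, 3, 6 and 12 counts (0.197, 0.180, 0.325 and 0.653 CPM), and the 4 TBI day 14 rats had 13, 9, 26 and 42 counts (0.862, 0.527, 1.29 and 2.22 CPM). All TBI day 1 rats lay above both sham day 1 rats, whereas TBI day 14 replicate 2 lay below the highest sham day 14 rat. Past the cutoff of the filter were 4 of 4 rats in each TBI group, 0 of 2 in sham day 1 and 1 of 4 in sham day 14, so that the gene was tested mainly because of its level after TBI.

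At day 1 Cd200r1 was 5.30-fold higher in TBI (log2FC 2.41, SE 0.68, adjusted p = 0.0232 in edgeR). This call rests on both sham day 1 rats, for without replicate 1 the log2FC was 1.81 (adjusted p = 0.12) and without replicate 2 it was 3.55 (adjusted p = 0.051). It was also lost in a fit of the 2 day 1 groups alone (2.44, adjusted p = 0.0742) and without the 3 libraries rich in choroid plexus RNA (1.80, adjusted p = 0.124). Against sham day 14 the log2FC at TBI day 1 was 2.49 (adjusted p = 0.0016). In that comparison 1 of the 7 genes was called higher, where 25.0% of all genes were, and 1 was called lower, Cd300lf, where 21.0% were. At day 14 the log2FC of Cd200r1 was 1.82 (SE 0.54, adjusted p = 0.0827), which was past the threshold in DESeq2 (1.84, adjusted p = 0.0285), in a fit of the 2 day 14 groups alone (1.85, adjusted p = 0.0495) and in 2 of the 14 fits without 1 library. The TBI effects at the 2 days differed by 0.58 (95% confidence interval from -1.26 to 2.43, adjusted p = 0.742).

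Cd200, the neuronal ligand of Cd200r1, was at 108 and 143 CPM in the sham day 1 rats and at 66.3, 93.1, 123 and 132 CPM in the TBI day 1 rats. It was at 119, 130, 144 and 164 CPM in the sham day 14 rats and at 114, 124, 120 and 128 CPM in the TBI day 14 rats. TBI and sham rats overlapped at both days. The log2FC was -0.28 at day 1 (95% confidence interval from -0.75 to 0.20, adjusted p = 0.406) and -0.19 at day 14 (from -0.58 to 0.20, adjusted p = 0.79). Over the same rats, the neuron markers summed to between 12384 and 16968 CPM at sham day 1, 5480 and 10704 CPM at TBI day 1, 7742 and 10678 CPM at sham day 14 and 7192 and 9333 CPM at TBI day 14. Of the 10 neuron markers, 4 were called lower at day 1 and 0 at day 14. Their part in the Cd200 values was not tested.

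Sirpa, the receptor for Cd47, was at 533 and 530 CPM in the sham day 1 rats and at 407, 534, 580 and 508 CPM in the TBI day 1 rats. It was at 494, 542, 565 and 604 CPM in the sham day 14 rats and at 625, 620, 590 and 730 CPM in the TBI day 14 rats. TBI and sham overlapped at both days, and every TBI day 1 rat lay below every TBI day 14 rat. The log2FC was -0.07 at day 1 (95% confidence interval from -0.39 to 0.26, adjusted p = 0.787) and 0.22 at day 14 (from -0.05 to 0.49, adjusted p = 0.535). Between the TBI groups it was -0.34 (SE 0.12, adjusted p = 0.0428), a call that was lost in 9 of the 14 fits that left out 1 library, with adjusted p up to 0.133, and without the 3 libraries rich in choroid plexus RNA (-0.45, adjusted p = 0.0583). Sirpa has near relatives in the rat genome, and how reads shared between copies were counted is not given in the sources used here, which holds for Cd300lf, Cd200r1 and Lair1 as well.

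Cd47, the ligand of Sirpa found on neurons and most other cells, was at 51.6 and 118.5 CPM in the sham day 1 rats and at 38.2, 67.1, 45.8 and 76.1 CPM in the TBI day 1 rats. It was at 54.0, 72.2, 77.2 and 70.9 CPM in the sham day 14 rats and at 71.0, 63.3, 68.5 and 80.8 CPM in the TBI day 14 rats. The 2 sham day 1 rats lay further apart than any other group of this gene. The log2FC was -0.58 at day 1 (95% confidence interval from -1.20 to 0.04, adjusted p = 0.172). It was -1.06 (adjusted p = 0.0174) without sham day 1 replicate 1, the library rich in choroid plexus RNA, and 0.14 without replicate 2. At day 14 it was 0.05 (from -0.47 to 0.57, adjusted p = 0.978).

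Lair1, a receptor for collagens and complement C1q, had 5 and 10 counts in the sham day 1 rats, 8, 18, 14 and 13 in the TBI day 1 rats, 7, 11, 5 and 7 in the sham day 14 rats and 8, 9, 8 and 12 in the TBI day 14 rats. TBI and sham overlapped at both days. The log2FC was 0.68 at day 1 (95% confidence interval from -0.35 to 1.71, adjusted p = 0.341) and 0.24 at day 14 (from -0.61 to 1.09, adjusted p = 0.903). With so few counts the intervals are wide, and the upper bounds of both lie above 1 on the log2 scale. Of its rats, 0 of 2 in sham day 1, 1 of 4 in sham day 14 and 3 of 4 in each TBI group were past the cutoff of the filter.

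**Figure D2:**
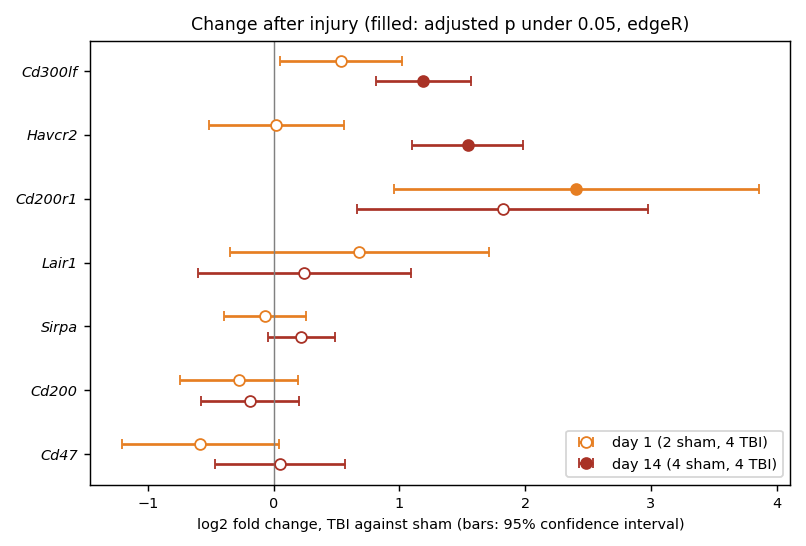
Log2 fold change of TBI against sham for the 7 genes at day 1 (2 sham and 4 TBI rats) and day 14 (4 and 4). Bars are 95% confidence intervals, and filled points have an adjusted p under 0.05 in edgeR: Cd200r1 at day 1 (2.41), and Cd300lf (1.19) and Havcr2 (1.54) at day 14.

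The genes around these receptors were described from 4 lists with 81 genes in all: their ligands, the phosphatases and adaptors of inhibitory signalling, the activating partners, and other inhibitory receptors. The median log2FC over all 12875 genes was -0.02 at day 1 and -0.03 at day 14. Over all genes, 11.2% were called higher and 7.93% lower at day 1, and 4.07% higher and 0.365% lower at day 14. No list or marker count was tested against these shares.

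Among the ligands, 13 of 20 were tested, and 3 were called higher and 0 lower at each day, with a median log2FC of 0.60 at day 1 and 0.33 at day 14. Without the 3 libraries rich in choroid plexus RNA, 6 ligands were called at day 1 and 3 at day 14, and DESeq2 called 7 at day 1. With all 14 libraries in edgeR the called genes were C1qb, C1qc and Col4a1 at day 1 and all 3 chains of complement C1q, which Lair1 binds, at day 14. C1qb rose by a log2FC of 1.65 at day 1 (adjusted p = 0.00363) and 1.69 at day 14 (adjusted p = 0.000835), and C1qc rose by 1.72 (adjusted p = 0.00207) and 1.52 (adjusted p = 0.00126). C1qa rose at day 14 (1.52, adjusted p = 0.000125), with a value of 0.60 at day 1 (adjusted p = 0.0752). Col4a1, a basement membrane collagen, was higher in TBI than in sham at day 1 (1.20, adjusted p = 0.00176), with -0.43 at day 14 (adjusted p = 0.247). Its level at sham day 1 was low, with a log2FC of -1.39 against sham day 14 (adjusted p = 0.00201 in edgeR). Against sham day 14, TBI day 1 had -0.19 (adjusted p = 0.382 in edgeR).

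Other direct ligands gave values that missed the threshold. The collagens bound by Lair1 had log2FC values of 0.46 at day 1 and 0.36 at day 14 for Col1a1 and of 0.98 and 0.40 for Col3a1, and Cd99, a ligand of the Pilra family, had 0.60 and 0.23. Thbs1, a thrombospondin that binds Cd47, had a log2FC of 1.92 at day 1 (SE 0.68, adjusted p = 0.0608) and -0.35 at day 14. Thbs2, the other thrombospondin on the list, had -0.30 and 0.81. Of the ligands of Havcr2, Lgals9 had 0.13 and 0.33 and Ceacam1 had 0.18 and -0.26 at the 2 days. The ligands of Pilra, Pianp and Npdc1, had -0.44 (adjusted p = 0.0682) and 0.45 (adjusted p = 0.0507) at day 1, and -0.05 and -0.02 at day 14.

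All 13 phosphatases and adaptors were tested. Of these, 9 were called higher at day 1 and 5 at day 14, and 0 were lower at either day, with a median log2FC of 0.76 and 0.30. With only the groups compared in the fit the order of the days turned round, with 5 called at day 1 and 8 at day 14. Ptpn6, the phosphatase most used by receptors with these motifs in blood cells, ranged from 10.9 to 14.6 CPM in sham day 1, 48.6 to 69.2 CPM in TBI day 1, 11.3 to 13.5 CPM in sham day 14 and 39.3 to 53.3 CPM in TBI day 14. It rose by 2.16 at day 1 (SE 0.20, adjusted p = 8.93e-06) and by 1.82 at day 14 (SE 0.15, adjusted p = 8.56e-06). Ptpn11, a widely expressed relative, had -0.05 and -0.19, neither called. Inpp5d rose by 0.76 (adjusted p = 0.0244) and 1.12 (adjusted p = 0.000931).

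The adaptors of Cd200r1 did not move alike. Dok2 rose at day 1 (2.03, SE 0.33, adjusted p = 0.000714) and had 0.02 at day 14 (adjusted p = 0.988), and these TBI effects differed by 2.00 (adjusted p = 0.0138). Dok1 rose at both days (1.36 and 1.25, adjusted p = 0.0299 and 0.0368), while Rasa1, a regulator of Ras that Dok proteins bind, had -0.18 and -0.26. The adaptors of Sirpa rose at both days, Fyb by 1.77 and 1.95 and Skap2 by 1.25 and 1.10, with adjusted p from 0.000244 to 0.00169. Bag6, listed here as a protein that binds the tail of Havcr2, had -0.03 and -0.12, with adjusted p of 0.878 and 0.726.

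Of the activating partners, 13 of 19 were tested, with 11 called higher at day 1, 10 at day 14 and 0 lower. Their median log2FC was 2.36 at day 1 and 2.00 at day 14. With genes at or under 3 counts in sham set to their lower bounds it was 2.13 and 1.69. The 1.69 leaves out 1 gene that was at or under 3 counts in TBI day 14 too. Tyrobp, the adaptor of many activating receptors, rose by 2.36 (adjusted p = 1.36e-05) and 2.00 (adjusted p = 9.39e-06), and Fcer1g rose by 2.13 and 2.07. Clec7a, a receptor for fungal glucans, had 3 and 8 counts in sham day 1 and from 317 to 807 in TBI day 1 (log2FC 6.65, SE 0.75, adjusted p = 4.08e-05). Fgr, a Src family kinase of myeloid cells, rose by 3.43 at day 1 and 1.76 at day 14. Cd300lb, the activating relative of Cd300lf, had 0 counts in all 6 sham rats, from 3 to 22 in the TBI day 1 rats and from 0 to 2 in the TBI day 14 rats. Trem1 had 0 counts in both sham day 1 rats and from 37 to 84 in the TBI day 1 rats. Cd300lb, Trem1, Clec7a and Hcst had at most 8 counts in any sham rat. They were tested because of their level after TBI and could hardly be called lower.

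Of the other inhibitory receptors, 18 of 29 were tested, and 11 were called higher and 0 lower at each day. With at least 10 counts in every sample 6 and 5 were called, but that filter also left fewer of them tested. The median log2FC of the 18 was 2.22 at day 1 and 2.46 at day 14, or 2.13 and 2.303 with the lower bounds. Lilrb4, Lag3 and Vsig4 had at most 8 counts in any sham rat. They were tested because of their level after TBI and could hardly be called lower. Cd72, Clec4a, Clec12a and Milr1 had at most 14 counts in any sham rat, so a fall was hard to call for these genes too. Cd300a, another inhibitory receptor of the Cd300 family, rose by 1.77 at day 1 (adjusted p = 0.00286) and 2.36 at day 14 (adjusted p = 8.85e-05). Lilrb4, of the leukocyte immunoglobulin-like receptor family, had 3 and 5 counts in sham day 1 and from 1130 to 2122 in TBI day 1 (log2FC 8.49, SE 0.88, adjusted p = 1.91e-05), and it rose by 4.60 at day 14. Clec12a, a receptor for uric acid crystals, rose by 5.08 and 4.28, and Clec4a1 by 4.11 and 2.16. Lag3, which like Havcr2 marks exhausted T cells, rose at day 14 (4.08, SE 0.35, adjusted p = 9.39e-06), with 1.24 at day 1 (adjusted p = 0.106), and these effects differed by -2.83 (adjusted p = 0.0344).

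**Figure D3:**
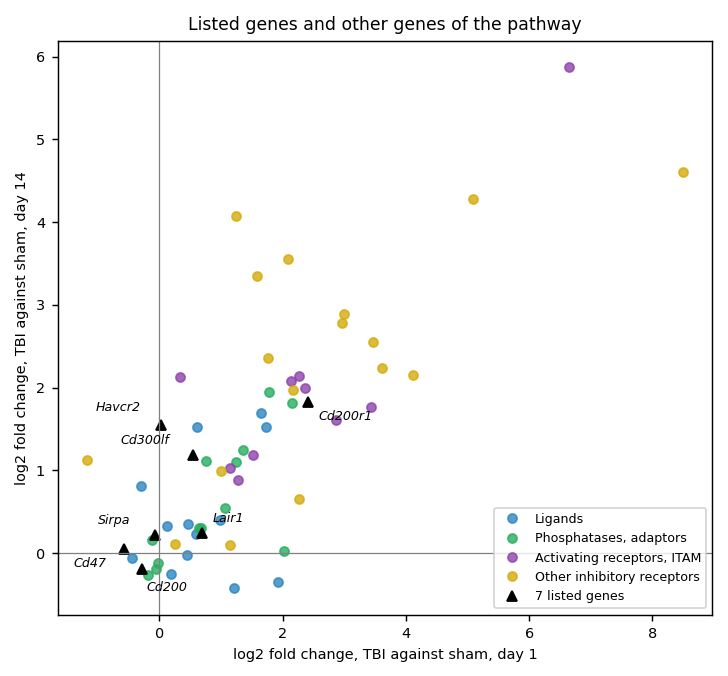
Log2 fold change of TBI against sham at day 1 (x axis) and day 14 (y axis) for the 7 genes (black triangles) and 53 tested genes of the 4 lists (coloured points), each from edgeR. The genes Cd300lb, Hcst, Trem1 and Vsig4, with almost no counts in sham rats, are left out. Havcr2 and Cd300lf lie at 0.02 and 0.54 on the x axis and above 1 on the y axis, while most other inhibitory and activating receptors lie to their right.

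Markers of myeloid cells differed between the groups too. The 11 microglia markers summed to between 370 and 591 CPM in sham day 1, 639 and 749 CPM in TBI day 1, 425 and 565 CPM in sham day 14 and 974 and 1681 CPM in TBI day 14, and 1 of them, Siglec5, is also on the list of other inhibitory receptors. At day 14, 8 of the 11 were called higher and 0 lower. At day 1, 3 were higher (Aif1, Itgam and Ptprc) and 2 lower, P2ry12 by -0.88 (adjusted p = 0.019) and Tmem119 by -1.90 (adjusted p = 0.00299), both markers of resident microglia. P2ry12 was at 20.0 to 29.5 CPM in sham day 1 and 10.2 to 18.1 CPM in TBI day 1, which overlapped sham day 14 at 13.7 to 18.6 CPM. Tmem119 was at 3.8 to 8.3 CPM in TBI day 1, below sham day 1 (14.2 to 28.0 CPM) and sham day 14 (16.6 to 29.6 CPM). Of 10 markers of monocytes and macrophages, which include Mrc1, Cd163, Lyve1 and Vcan, 8 were tested, with 5 higher at day 1 and 1, Lyz2, at day 14. They summed to between 91.8 and 119 CPM in sham day 1 and 331 and 575 CPM in TBI day 1, and to between 94.3 and 113 CPM in sham day 14 and 112 and 253 CPM in TBI day 14. Of 10 neutrophil markers, 6 were tested, with 4 higher at day 1 and 1, Csf3r, at day 14. They summed to at most 10.2 CPM in sham rats, to between 29.6 and 79.6 CPM in TBI day 1 and to between 15.6 and 27.8 CPM in TBI day 14. S100a8, S100a9, Cxcr2, Elane and Mmp8 had at most 9 counts in any sham rat. The same holds for Ly6c and Ms4a7 of the monocyte and macrophage list. These genes could hardly be called lower. The part of these cells in the receptor levels was not tested.

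Havcr2 and Lag3 are also T cell receptors. Of 8 markers of T and NK cells, 7 had a row and 3 were tested. The 7 summed to between 3.78 and 27.1 CPM in sham rats, 6.69 and 18.5 CPM in TBI day 1 and 40.8 and 83.8 CPM in TBI day 14. Cd4, which rat macrophages and microglia express too, was called higher at day 14 (2.69, adjusted p = 0.000127), and Cd8a at day 1 (4.40, adjusted p = 0.00103). Cd8a had at most 4 counts in any sham rat and from 48 to 146 in the TBI day 1 rats. It was tested because of its level after TBI and could hardly be called lower. Cd3e had 0.65 at day 14 (adjusted p = 0.865), and Cd3d and Cd3g were at no more than 6 counts in any rat. The part of T cells in the Havcr2 values was not tested.

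Set against the mean log2 CPM of the 11 microglia markers in the same library, the receptors showed other patterns. On this log2 scale Havcr2 stood at -1.76 ± 0.32 (SD, n = 4) in sham day 14 and at -1.57 ± 0.13 in TBI day 14, and Cd300lf at -1.63 ± 0.06 and -1.80 ± 0.23. For both genes the TBI and sham rats of day 14 overlapped. Cd200r1 stood at -5.97 ± 1.56 (n = 2) in sham day 1 and at -4.02 ± 0.38 in TBI day 1, where the 4 TBI rats lay above both sham rats. At day 14 it stood at -5.97 ± 0.51 in sham and -5.77 ± 0.60 in TBI. Lair1 stood at -5.59 ± 0.50 in sham day 14 and at -6.70 ± 0.20 in TBI day 14, and Sirpa at 4.43 ± 0.20 and 3.31 ± 0.22, and for both genes every TBI rat lay below every sham rat. These differences were not tested, and the microglia list itself differs between the groups. Without this subtraction neither Lair1 nor Sirpa was lower in TBI at day 14, with log2FC values of 0.24 and 0.22. Sirpa alone was at 494 to 604 CPM in sham day 14, where the 11 markers together summed to 425 to 565 CPM. How much of the Sirpa RNA came from microglia was not tested.

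**Figure D4:**
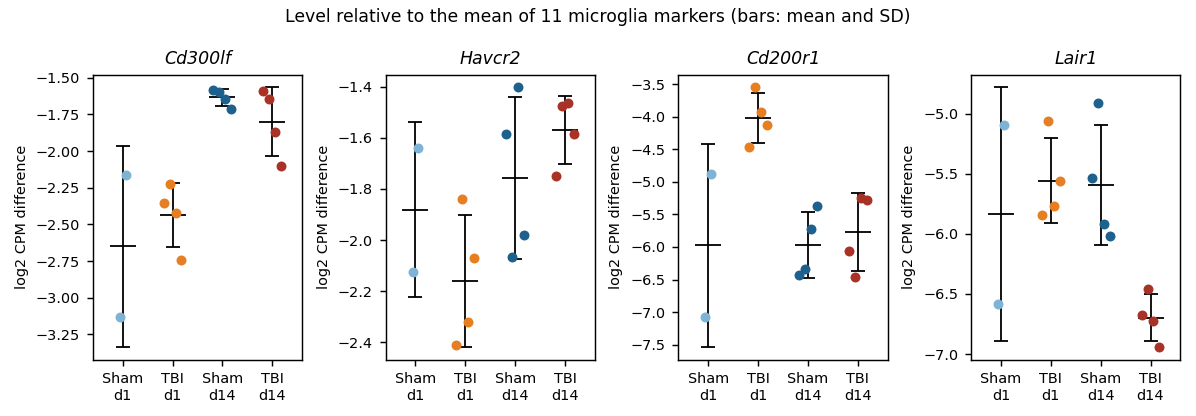
Log2 CPM of Cd300lf, Havcr2, Cd200r1 and Lair1 minus the mean log2 CPM of 11 microglia markers in the same library, by group, with points for rats and bars for mean and SD. At day 14 TBI and sham overlap for Cd300lf and Havcr2, TBI day 1 is the group nearest to the markers for Cd200r1, and TBI day 14 is the lowest group for Lair1.

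The genes with the most similar pattern over the 14 rats were found by the root mean square difference of log2 CPM, each gene centred on its own mean. Nearest to Havcr2 were Csf1r, the receptor for the growth factor that keeps microglia alive (0.29), and the lysosomal protease gene Ctsd (0.29). Nearest to Cd300lf were Plcb2 (0.27), Spint1 (0.31) and Man2b2 (0.32), and near to Cd200r1 were Cd53 (0.46) and Ptpn7 (0.51). Rpn1, Tmem50a and Ggh were nearest to Cd200 (0.09 to 0.10), Pcdhga10, Efnb2 and Mmp16 to Cd47 (0.16 to 0.17), Asah1, Galnt2 and Tpst1 to Sirpa (0.09 to 0.11), and P2rx4, Nucb2 and Pxdc1 to Lair1 (0.26). Small values are common for genes that vary little. Of the 3 nearest to each gene, Pearson's correlation ranked 2 of 3 among its own first 3 for Cd200, 1 of 3 for Cd300lf and Sirpa, and 0 of 3 for the other genes. Among the 7 genes themselves, Cd300lf and Havcr2 differed by 0.38, and a ligand and its receptor differed by 1.24 for Cd200 and Cd200r1 and by 0.34 for Cd47 and Sirpa.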

How the data were processed

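Per the labels and the study's methods, the authors aligned single-end reads of stranded mRNA libraries to the rat build rn5 with STAR 2.4.2a and made counts for genes of the UCSC annotation with featureCounts 1.5.0. How strand and shared reads were treated is not given in the sources used here. The deposited values were whole-number counts per gene without normalization, from 14 libraries with 15065540 to 23743703 counts each. All labelled samples were used, in the groups their titles give. Pairs of replicates differed by more than counting noise, so p-values rest on how much the rats of a group varied.

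Here edgeR 4.0.16 under R 4.3.3 was applied to these counts, with TMM scaling, its default filter by group (minimum count 10) and the quasi-likelihood model, all 14 libraries entering 1 fit with a mean for each group. Tests were two-sided, with Benjamini-Hochberg adjustment across 12875 genes. The SE is the log2 fold change divided by the square root of F. Log2 CPM used a prior count of 2. Limma-voom (limma 3.58.1), DESeq2 1.42.0 and other settings were alternatives. Figures were drawn with matplotlib 3.10.9.

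The 8 genes and the gene lists were chosen with earlier results of these data known. Named from each list were the 4 largest changes among called genes, and the tested direct ligands or signalling partners of the 8, whatever their change. Also named were the 3 tested genes nearest in pattern to each of the 7, of which some are not reported here, and Inpp5d, Tyrobp, Fcer1g, Cd300a and marker genes were added by their role. H3K4me3 peak lists of day 1 were not used here, because genes could not be placed on rn5 here, and protein sequences were not used here.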

Additional observations from a re-analysis of the deposited data

Results flagged for a closer look

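Of 21 groups of 4 rats tested for a value far from the rest (3 groups for each of the 7 genes), 2 passed Dixon's limit for 4 values, both for Havcr2 on the scale of log2 CPM, and chance alone passes about 1 in 20. In TBI day 1, replicate 1 was low at 5.50 CPM against 7.61 to 8.02 CPM, with a gap of 0.86 of the range of the group on that log2 scale. In TBI day 14, replicate 4 was high at 30.0 CPM against 19.1 to 19.9 CPM, with a gap of 0.91 of the range on the log2 scale. Without that rat the Havcr2 change at day 14 stayed called, as in all 14 fits that left out 1 library. The TBI effect on Havcr2 differed between the days, by -1.52 on the log2 scale at day 1 minus day 14 (adjusted p = 0.0176 in edgeR), with the limits given in the report.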

How the results depend on the processing

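The day 14 calls of Havcr2 and Cd300lf, and their lower level at TBI day 1 than at TBI day 14, held under all 24 alternatives run for each. Comparisons with sham day 1 rest on 2 rats, 1 of them rich in choroid plexus RNA, and their counts moved. The 1 gene called higher at day 1 became 0 with at least 10 counts in every sample (Cd200r1 then untested), with only the groups compared, at an adjusted p under 0.01, and without the 3 libraries rich in choroid plexus RNA (an alternative chosen after seeing the data). The 0 called lower at day 1 became 1 against sham day 14 (Cd300lf, reversed to -0.46) and 1 without those 3 libraries (Cd47, -1.08, adjusted p = 0.026). The 1 lower difference between the days became 0 with the choroid score as a term (Havcr2, -1.54, adjusted p = 0.0629), at 0.01 and without those libraries. The 1 lower in sham day 1 against sham day 14 became 0 at 0.01 and without those libraries. Over the 14 fits that left out 1 library, each of these 4 counts ran from 0 to 1. A fit left with 1 sham day 1 rat assumes that it varies like the other groups. Apart from the causes named, the cause of a lost call was not tested.

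Of the list counts, ligands at day 1 became 7 with DESeq2, and phosphatases and adaptors became 5 and 8 with only the groups compared. Other inhibitory receptors became 6 and 5 at the 2 days with at least 10 counts in every sample, where fewer of them were tested. Without the 3 libraries rich in choroid plexus RNA, ligands at day 1 became 6 and the other list counts stayed within 1.5 times. With the replicate number as a block, 1 gene stayed called higher at day 1 and 2 at day 14, no call of the 7 genes changed, and ligands at day 1 went from 3 to 5. Between samples with the same number, the correlation of their deviations was over 0.1 in 5 of 18 pairs (range -0.35 to 0.24). Deviations were taken from the mean of each group, so the pairs are not independent. They cannot show whether such samples share more than the number. Of 827 values of single genes under an alternative, 762 kept their direction and side of the threshold, 25 fell short of it, 6 passed it and 34 changed sign, 33 of them called in neither fit. Depth limits Cd200r1 and Lair1, with as few as 3 and 5 counts in a library.

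The values called in neither fit that changed sign were as follows, all log2FC. With the block, Havcr2 at day 1 was -0.10, and sham day 1 against sham day 14 was 0.024 for Cd200, 0.032 for Sirpa and 0.041 for Havcr2. With the choroid score, the difference between the days was -0.0023 for Cd200r1 and -0.0065 for Lair1, and TBI day 1 against TBI day 14 was -0.020 for Lair1. Against sham day 14, Havcr2 at TBI day 1 was -0.070. Without the 3 libraries rich in choroid plexus RNA, the difference between the days was -0.38 for Cd200r1 and -0.078 for Lair1, TBI day 1 against TBI day 14 was -0.0035 for Lair1, and sham day 1 against sham day 14 was 0.045 for Cd200 and 0.074 for Lair1. Without 1 library, the values at day 1 ran from -1.06 to 0.14 for Cd47, from -0.14 to 0.025 for Sirpa and from -0.18 to 0.24 for Havcr2, and at day 14 from -0.051 to 0.11 for Cd47. The difference between the days ran from -0.27 to 0.13 for Cd200, from -0.011 to 1.72 for Cd200r1 and from -1.11 to 0.089 for Cd47. Sham day 1 against sham day 14 ran from -0.36 to 0.040 for Cd200, from -1.06 to 0.68 for Cd200r1, from -0.41 to 0.79 for Cd47, from -0.31 to 0.10 for Havcr2 and from -0.69 to 0.068 for Lair1.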
